A study of Mus musculus with 9 samples.

Results

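The Zbtb family comprises genes for proteins that join an N-terminal BTB domain to C-terminal C2H2 zinc fingers. The members were the rows of the deposited count table in which a symbol, alone or merged with others by semicolons, was Zbtb followed by a number and at most 1 letter. There were 39 such rows holding 40 symbols, of 30232 gene rows in all, and 35 of the 39 passed the filter on low counts and were tested among 12645 genes. The rule used symbols only and no measured value. Gzf1, which encodes a protein of the same class, was not counted as a member.

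In these proteins the BTB domain lets molecules dimerise and gives a surface for corepressors such as NCoR and BCOR, while the zinc fingers read DNA. Members act mostly as sequence-specific repressors in cell fate decisions, above all in blood, and a few of them (Zbtb33, Zbtb4 and Zbtb38) bind methylated CpG. In embryonic stem cells Zbtb17, Zbtb2 and Zbtb24 are known for roles at lineage genes, at unmethylated CpG islands and in DNA methylation.

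The samples were 9 libraries of mouse embryonic stem cells grown in serum and LIF on irradiated fibroblast feeders, which were removed before harvest. Run2 held 4 libraries of RGM cells, namely replicates 1 and 2 of either genotype. Run1 held V6.5 cells, as replicate 3 of the wild type and replicates 3, 4 and 5 of the Gzf1 knockout, together with a Cas9-GFP line as wild-type replicate 4. The labels give no further allele and do not say whether libraries of a genotype came from separate clones or cultures, and the p-values therefore reflect library-to-library spread that may be technical. Whether any Zbtb gene changes when Gzf1 is lost, and how the members differ between the lines, was asked of all 9 libraries.

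Totals were 2568489 to 3704162 counts in run2 and 4872127 to 7072697 in run1, and the Zbtb rows held 0.0549% to 0.0797% of them. Levels are 3' tags scaled to library size (CPM) with TMM factors and are listed by replicate number, 1 to 4 for wild type and 1 to 5 for knockout, and 3 counts, taken as the floor for counting error, were 0.412 to 1.18 CPM. Gzf1 gave 28.6, 30.0, 8.11 and 18.7 CPM for wild type and 5.45, 14.2, 1.66, 9.40 and 5.25 CPM for knockout. Its log2 fold change was -1.45 (SE 0.42, unadjusted p = 0.0048, edgeR adjusted p = 0.9998), and knockout replicates 2 and 4 lay above wild-type replicate 3. A 3' tag outside an edited part of a gene does not check the edit. The 10 pluripotency markers were detected in every library, with Sox2 at 359 to 591 CPM. Between the runs 2 of them were higher in run2 and 1 lower (edgeR adjusted p under 0.05), beside 45.3% of all genes tested. Their log2 differences of run2 over run1 ran from -1.23 to 3.30. The 20 fibroblast markers summed to 3872 to 5691 CPM in run2 and 2212 to 3167 CPM in run1, and Lum, 1 of them, had no count in wild-type replicate 3. In bulk RNA fewer cells of a type and less RNA per cell cannot be told apart.

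Promoter sequence from RefSeq (GRCm38.p6) was matched to 35 of the 40 symbols. Zbtb10, Zbtb48, Zbtb40, Zbtb7c and Zbtb16 had none. The 250 bases before each annotated start were examined, 48 windows for the members and 32851 in all. Member windows held a median of 20 CpG, against 6 over all windows, with a median GC content of 64.6% against 52.4%. The following 3 windows are shown for a member lower in RGM cells, a member higher in RGM cells and the stem cell factor that varied most among libraries. They are printed in the direction of the gene, and capitals mark TGCCGC, the core bound by Zfp57, or its reverse complement.
Zbtb33 (chrX:38189543-38189792, plus strand): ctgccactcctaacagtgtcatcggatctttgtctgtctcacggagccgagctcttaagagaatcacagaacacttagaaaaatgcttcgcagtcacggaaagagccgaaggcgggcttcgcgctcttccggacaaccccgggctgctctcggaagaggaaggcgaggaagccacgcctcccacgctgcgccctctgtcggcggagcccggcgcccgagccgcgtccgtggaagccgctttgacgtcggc
Zbtb9 (chr17:26972929-26973178, plus strand): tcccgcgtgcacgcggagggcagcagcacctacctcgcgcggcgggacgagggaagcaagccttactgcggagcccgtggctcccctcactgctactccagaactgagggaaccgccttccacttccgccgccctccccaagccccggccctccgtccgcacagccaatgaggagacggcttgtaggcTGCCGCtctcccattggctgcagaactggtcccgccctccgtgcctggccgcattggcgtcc
Zbtb2 (chr10:4388109-4388358, minus strand): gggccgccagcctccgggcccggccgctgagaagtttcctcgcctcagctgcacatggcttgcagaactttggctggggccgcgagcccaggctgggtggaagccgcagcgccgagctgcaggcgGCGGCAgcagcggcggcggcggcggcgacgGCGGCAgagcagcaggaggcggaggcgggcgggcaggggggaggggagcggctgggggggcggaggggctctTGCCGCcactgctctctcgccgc

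The Zbtb33 and Zbtb2 windows overlapped no gene of GENCODE M21, and the last 12 bases of the Zbtb9 window lay in an exon of Zbtb9. Both strands were searched. TGCCGC stood in 10 of the 48 member windows (20.8%) and in 8.68% of all windows, beside the difference in CpG content given above. Of the 10, 2 are windows of Zbtb25 that overlap and share 1 match, and 2 are of Zbtb7b. In the Zbtb2 window TGCCGC occurred at 3 places, the outermost 125 bases before the start. It occurred at 1 place in the Zbtb9 window and nowhere in the Zbtb33 window. By call between the runs, it stood in 1 of 6 windows of rows higher in RGM cells (16.7%) and in 2 of 4 of rows lower there (50.0%), both of Zbtb7b. Among rows not called it stood in 6 of 33 (18.2%). The Kaiso consensus TCCTGCNA was in 4 member windows, 3 of Zbtb18, 2 of which overlap and share 1 match, and 1 of Zbtb37 (8.33% of windows from 2 genes), and in 4.03% of all windows. The search also covered a palindrome bound by Kaiso and a core motif of Gzf1. Each was in 0 of the 48 member windows, against 0.39% of all windows for the palindrome and 0.0122% for the Gzf1 motif. At such low shares in all windows, 0 of 48 says little. These letters describe the windows and show neither binding nor its absence.

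The tested members lay low in the range of expressed genes. Their mean level over the 9 libraries ran from 2.29 CPM (Zbtb37) to 128 CPM (Zbtb44), with a median of 14.3 CPM against 27.4 CPM over all genes tested. Tags are counted per transcript end and were not divided by length, so the order is one of captured tags. The 6 highest rows were Zbtb44, Zbtb11, Zbtb9, Zbtb45, Zbtb21 and Zbtb7a. Zbtb11, known from studies of hematopoiesis and mitochondrial gene control, gave 46.4, 55.2, 39.0 and 63.5 CPM for wild type and 48.0, 41.0, 42.6, 61.2 and 44.6 CPM for knockout. The mean was 51.0 ± 10.6 CPM (SD, n = 4) for wild type against 47.5 ± 8.09 CPM (SD, n = 5) for knockout, a difference smaller than the spread within either genotype. Zbtb21, whose row also names AK084920 and AK170928, gave 31.3, 33.1, 34.5 and 38.5 CPM for wild type and 31.4, 32.8, 29.4, 44.5 and 23.4 CPM for knockout. Zbtb45 gave 32.9, 32.4, 48.6 and 52.2 CPM for wild type and 32.0, 42.6, 41.9, 56.6 and 18.7 CPM for knockout. Its gene (chromosome 7, 13003898 to 13010034, mm10) overlaps that of Trim28 on the other strand, and no source used here says how the counting treated strand. For each of the 3 genes the genotypes overlapped, and the knockout log2 fold changes were -0.11 for Zbtb11 (SE 0.18), -0.10 for Zbtb21 (SE 0.19) and -0.14 for Zbtb45 (SE 0.26).

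**Figure D1:**
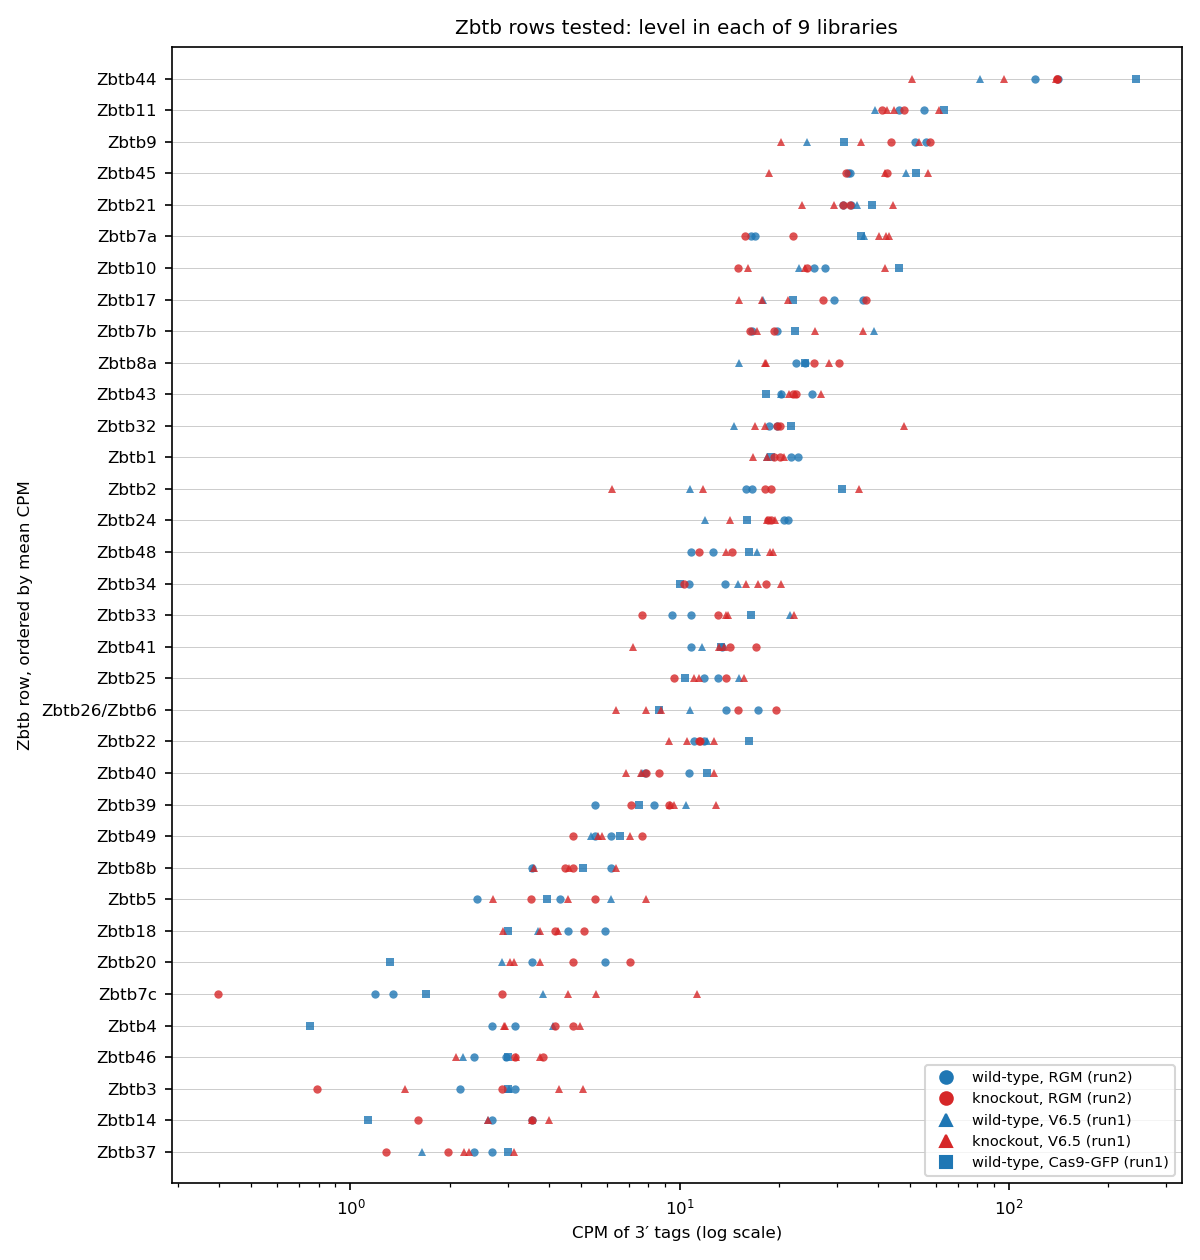
Level of each of the 35 tested Zbtb rows (vertical axis, ordered by mean) in CPM on a log axis, with 1 point per library; colour gives genotype and shape the cell line. Blue and red points overlap in every row, and for Zbtb7a the 4 RGM libraries (15.8 to 22.1 CPM) sit below the other 5 (35.4 to 43.1 CPM).

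No Zbtb member was called in the knockout. Of the 35 tested rows 0 passed the threshold in edgeR with run as a term (adjusted p = 0.9998 for each), 1 had an unadjusted p under 0.05, and DESeq2 and limma voom also called 0. Over all genes tested 0.0316% were called and 2.32% had an unadjusted p under 0.05. The log2 fold changes ran from -0.39 to 1.07 with 19 positive and 16 negative, a median of 0.06 against 0.01 for all genes tested. In 0 of the 35 rows did the knockout libraries lie entirely above or below the wild-type libraries, against 0.443% of all genes tested. The 95% interval of the log2 fold change lay within -1 and 1, that is within a 2-fold change either way, for 28 members, against 84.3% of all genes tested. The other 7 were Zbtb44, Zbtb2, Zbtb32, Zbtb20, Zbtb7c, Zbtb4 and Zbtb14, for which a 2-fold difference was not outside the interval.

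**Figure D2:**
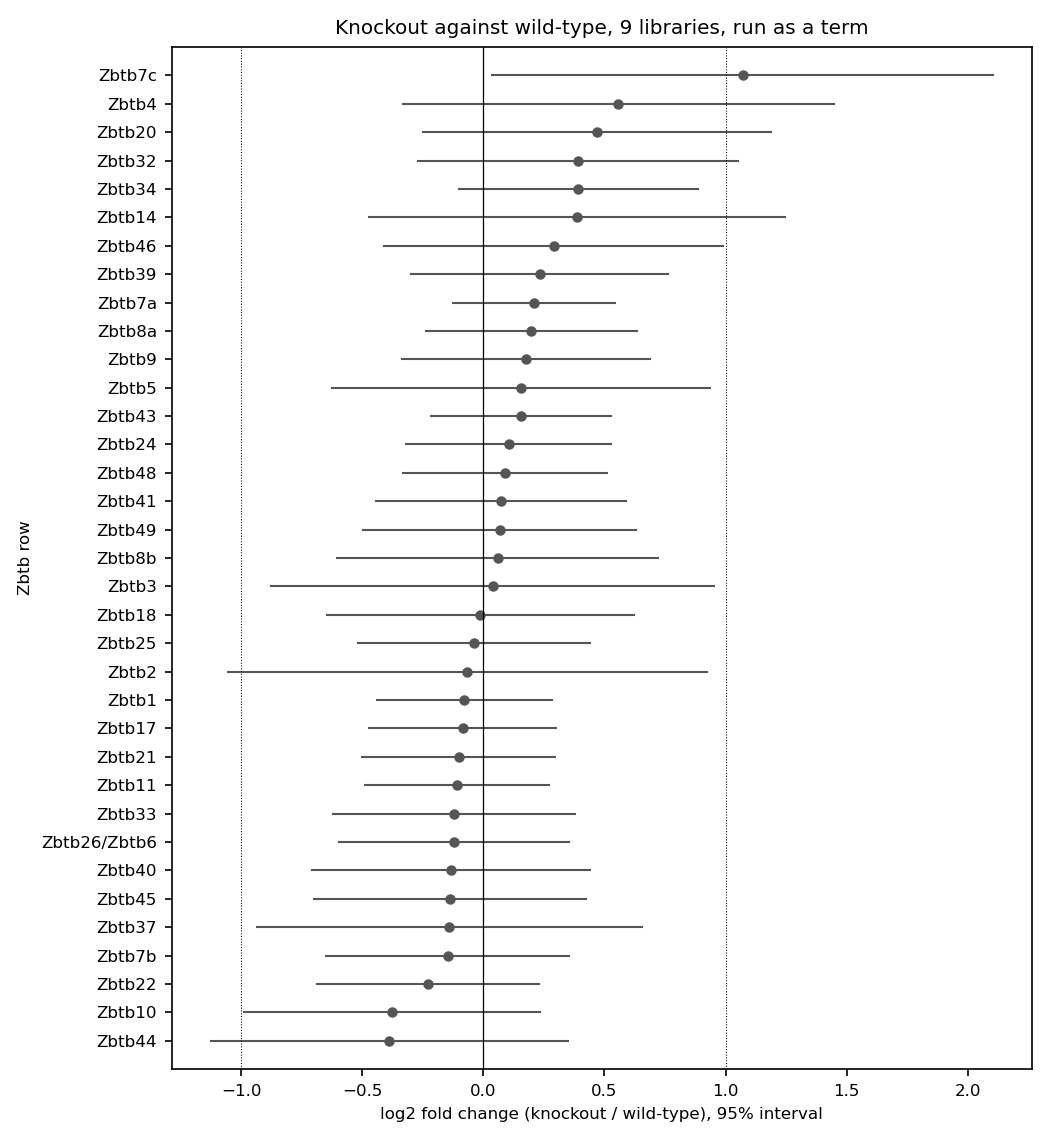
Log2 fold change of knockout over wild-type (horizontal axis) with its 95% interval for the 35 tested Zbtb rows, ordered by size; dotted lines mark 2-fold. All 35 are drawn in grey because none passed the adjusted threshold, and Zbtb7c alone has an interval that leaves out 0.

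Among the factors of blood and immune cells 0 of 6 tested members passed the threshold in the knockout, 3 with values above 0 and 3 below. Zbtb7a (LRF), a repressor with roles in lymphoid and erythroid cells that also silences fetal globin, gave 16.4, 17.0, 36.3 and 35.4 CPM for wild type and 22.1, 15.8, 40.2, 42.2 and 43.1 CPM for knockout. Within run1 the 3 knockout libraries lay above both wild-type libraries, and in run2 they did not. The tested members Zbtb7c, Zbtb20, Zbtb34, Zbtb43 and Zbtb14 had the same order in run1, and its share over all genes was not counted. The Zbtb7a log2 fold change of 0.21 (SE 0.16, unadjusted p = 0.20, 95% interval -0.13 to 0.55) did not pass. Zbtb32 (ROG), a regulator of lymphocyte activation, gave 18.6, 19.7, 14.6 and 21.7 CPM for wild type and 20.2, 19.7, 48.0, 16.9 and 18.2 CPM for knockout. Only knockout replicate 3 stood out, and the log2 fold change was 0.39 (SE 0.31). Zbtb1, needed for lymphoid development, lay between 16.7 and 22.9 CPM, with a log2 fold change of -0.08 (95% interval -0.44 to 0.28). Zbtb7b (ThPOK), the factor of CD4 T cell commitment, had -0.15 (SE 0.23), Zbtb25 -0.04 (SE 0.22) and Zbtb46, a marker of classical dendritic cells, 0.29 (SE 0.33). Zbtb16 (PLZF), a factor of innate-like T cells and spermatogonia, had 1 count each in the third and the fourth wild-type library and the fourth knockout library and 0 elsewhere, below the floor in all 9 libraries.

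Among members with roles in neural, muscle and metabolic tissue 0 of 4 passed the threshold in the knockout. Zbtb7c, a close relative of Zbtb7a, had the smallest unadjusted p of the family. It gave 1.35, 1.18, 3.85 and 1.70 CPM for wild type against 2.88, 0.395, 4.56, 11.3 and 5.57 CPM for knockout. Knockout replicate 4 was the highest and knockout replicate 2, with 1 count, the lowest of all 9 libraries. The genotypes overlapped in run2, while in run1 all 3 knockout libraries were above both wild-type libraries. The log2 fold change was 1.07 (SE 0.48, 95% interval 0.04 to 2.10, unadjusted p = 0.043, adjusted p = 0.9998), and the effect was 0.42 (SE 0.92) within run2 and 1.31 (SE 0.59) within run1. Without wild-type replicate 4 it was 0.71, and without both libraries numbered 4 it was 0.40. Zbtb20, a repressor of liver, hippocampus and pituitary development, gave 5.93, 3.55, 2.88 and 1.32 CPM for wild type and 7.05, 4.74, 3.04, 3.13 and 3.77 CPM for knockout. In run1 all 3 knockout libraries were above both wild-type libraries, and in run2 they were not. This order in run1, also that of Zbtb7c, was looked at for Zbtb members only and not over all genes. The Zbtb20 log2 fold change was 0.47 (SE 0.34, unadjusted p = 0.18). Zbtb18 (RP58), a repressor in cortical neurons, had -0.01 (SE 0.30) at a mean of 4.31 ± 1.25 CPM (SD, n = 4) for wild type against 4.04 ± 0.81 CPM (SD, n = 5) for knockout.

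Among the readers of methylated DNA, Zbtb33 had a mean of 14.3 CPM, the median of the tested members. Zbtb4 and Zbtb38 were lower, at means of 3.39 and 0.807 CPM. Zbtb33 (Kaiso, chromosome X, 38189793 to 38197046) gave 10.8, 9.47, 21.6 and 16.4 CPM for wild type and 7.69, 13.0, 14.0, 22.1 and 13.8 CPM for knockout. Its log2 fold change in the knockout was -0.12 (SE 0.23, 95% interval -0.62 to 0.38). Zbtb4 gave 2.70, 3.16, 4.12 and 0.754 CPM for wild type and 4.16, 4.74, 4.98, 2.92 and 2.95 CPM for knockout, with a log2 fold change of 0.56 (SE 0.42, unadjusted p = 0.20). Wild-type replicate 4 was the lowest library, with 4 counts, and without it the Zbtb4 value was 0.20, while without wild-type replicate 3 it was 1.19, not called in either fit. The third reader, Zbtb38, shares its row with E030011O05Rik and was not tested. Its counts were 0, 0, 4 and 5 for wild type and 1, 0, 17, 7 and 10 for knockout, so that all 4 RGM libraries were below the floor of 3 counts.

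Factors studied in stem cells, DNA methylation and at telomeres gave 0 calls among 8 tested members in the knockout, with 3 positive and 5 negative log2 fold changes and a median of -0.08. Zbtb24, mutated in the ICF syndrome of centromeric hypomethylation, gave 20.8, 21.3, 11.9 and 16.0 CPM for wild type and 18.6, 18.9, 14.2, 19.4 and 18.4 CPM for knockout (log2 fold change 0.10, SE 0.20). Zbtb17 (Miz-1), the partner of Myc in repression, had -0.09 (SE 0.18), Zbtb48 (TZAP), a telomere binder, 0.09 (SE 0.20), Zbtb40 -0.13 (SE 0.27) and Zbtb3 0.04 (SE 0.43). Zbtb10 gave 25.6, 27.6, 23.1 and 46.2 CPM for wild type and 24.3, 15.0, 23.9, 42.0 and 16.1 CPM for knockout, with a log2 fold change of -0.38 (SE 0.28, unadjusted p = 0.21). Zbtb12 was not tested, at 0 to 28 counts a library.

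Cell cycle regulators and members of less described function likewise gave 0 calls in the knockout. Zbtb5 and Zbtb49, which act on the Cdkn1a promoter, had log2 fold changes of 0.16 (SE 0.36) and 0.07 (SE 0.26), and Zbtb14 (ZF5) 0.39 (SE 0.40). Zbtb34 gave 13.8, 10.7, 15.0 and 9.99 CPM for wild type and 18.3, 10.3, 17.3, 15.9 and 20.3 CPM for knockout. Of the 5 knockout libraries 4 lay above all 4 wild-type libraries and knockout replicate 2 among them, and the log2 fold change of 0.39 (SE 0.23, unadjusted p = 0.11) did not pass. Its neighbour Zbtb43, 18962 bases away on the same strand of chromosome 2, had 0.16 (SE 0.17) at a mean of 21.0 ± 2.98 CPM (SD, n = 4) for wild type against 23.1 ± 2.16 CPM (SD, n = 5) for knockout. Zbtb8a and Zbtb8b, 47648 bases apart on chromosome 4, had 0.20 (SE 0.20) and 0.06 (SE 0.31). Zbtb1 and Zbtb25 stand head to head on chromosome 12, with 663 bases between them. Further log2 fold changes were -0.23 for Zbtb22 (SE 0.21), -0.14 for Zbtb37 (SE 0.37), 0.23 for Zbtb39 (SE 0.25), 0.07 for Zbtb41 (SE 0.24) and -0.12 for the Zbtb26 and Zbtb6 row (SE 0.22). Zbtb2, whose levels are given with the spread in run1, had -0.07 (SE 0.45), and Zbtb9 had 0.18 (SE 0.24). Zbtb42 held 1 to 12 counts a library and was not tested.

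Within each run 0 members were called as well. In run1 the wild type is 1 V6.5 and 1 Cas9-GFP library while the knockouts are all V6.5, so that genotype and line are partly mixed there. In the contrast within RGM cells (run2, 2 libraries a genotype) 0 members were called by edgeR, against 0% of all genes, and 0 members had an unadjusted p under 0.05 (0.822% of all genes). Within run1 (3 knockout and 2 wild-type libraries) 0 members were called, against 0.0158% of all genes, and 1, Zbtb7c, had an unadjusted p under 0.05 (0.044; 3.84% of all genes). The knockout effect had the same sign in both runs for 19 of 35 members, against 48.2% of all genes tested. The difference of the effect between runs was called by edgeR for 0 members and for 0% of all genes, with 0 members at an unadjusted p under 0.05 (1.44% of all genes). The smallest such p were those of Zbtb14 (0.19) and Zbtb44 (0.20). Zbtb14 gave 2.70, 3.55, 2.61 and 1.13 CPM for wild type and 1.60, 3.55, 4.01, 3.55 and 2.62 CPM for knockout, and its effect was -0.29 (SE 0.63) within run2 and 0.82 (SE 0.50) within run1 on the log2 scale. Zbtb44, whose row also names AK037564, gave 0.10 (SE 0.47) within run2 and -0.77 (SE 0.42) within run1. Over all libraries it gave -0.39 (SE 0.34), and 0.15 without wild-type replicate 4.

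RGM cells (run2) and the libraries of run1 differed in 8 of the 35 tested Zbtb rows, 4 higher and 4 lower in RGM cells. Over all genes tested 45.3% were called between the runs (22.2% higher and 23.1% lower). The median absolute log2 difference was 0.24 for the members and 0.49 for all genes tested, with a median SE of 0.25 for the members and 0.21 for all. RGM cells make up all of run2 and are absent from run1, so that line and run cannot be told apart in this comparison. The fit used both genotypes, with genotype as a term.

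**Figure D3:**
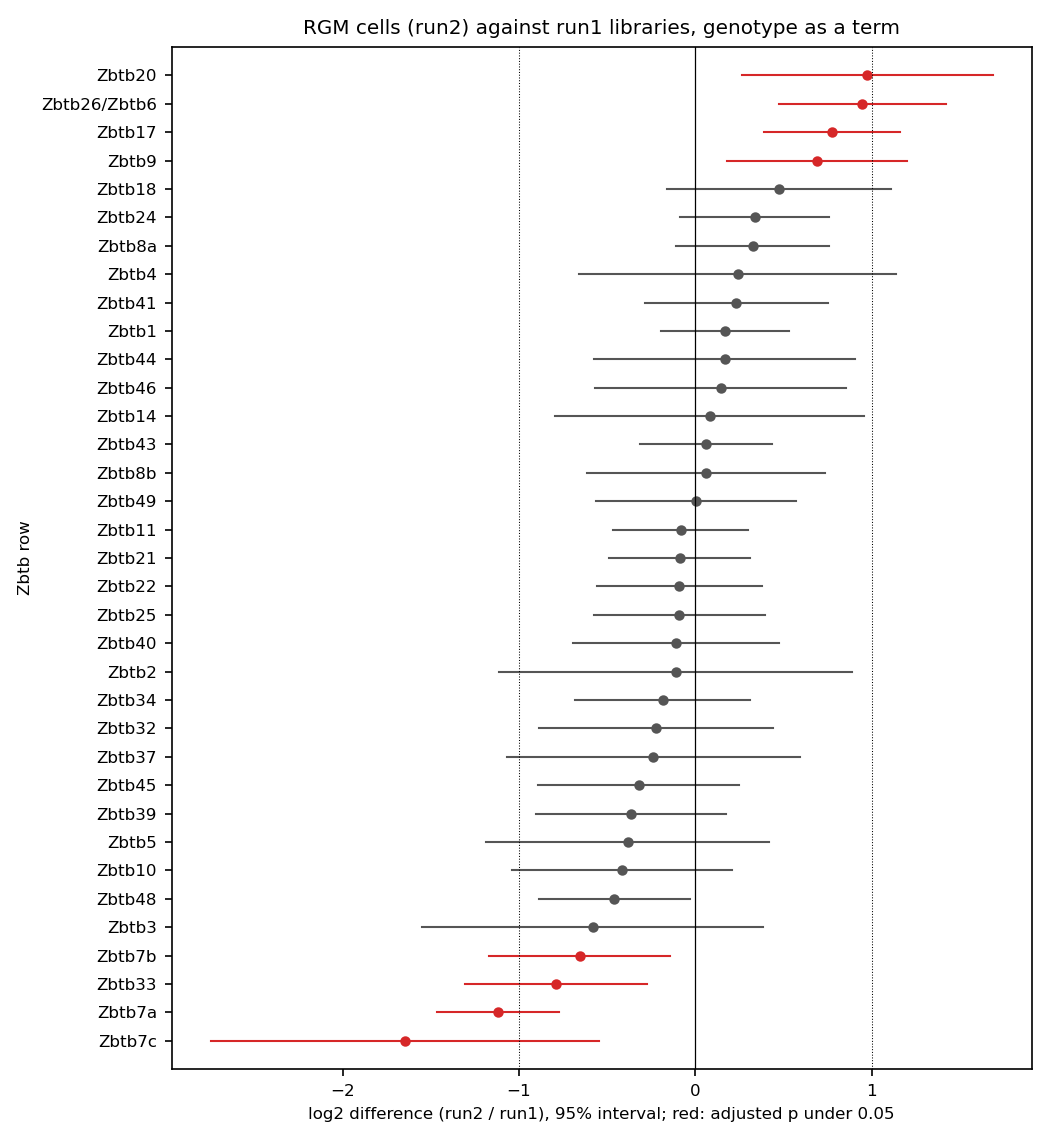
Log2 difference of run2 (RGM cells) over run1 (horizontal axis) with its 95% interval for the 35 tested Zbtb rows, ordered by size; red marks adjusted p under 0.05 in edgeR and dotted lines mark 2-fold. The 4 red rows on the left are Zbtb7c, Zbtb7a, Zbtb33 and Zbtb7b, and the 4 on the right are Zbtb9, Zbtb17, Zbtb26 with Zbtb6, and Zbtb20.

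The 3 members of the Zbtb7 subfamily were all called lower in RGM cells, beside 23.1% of all genes tested. Zbtb7a (chromosome 10, 81135220 to 81152995) was at 17.8 ± 2.89 CPM (SD, n = 4) in run2 and 39.5 ± 3.45 CPM (SD, n = 5) in run1, without overlap. It was 2.17-fold lower (log2 difference -1.12, SE 0.16, adjusted p = 9.6e-05). The difference was called in wild-type libraries alone (-1.10, adjusted p = 0.0079) and in knockout libraries alone (-1.13, adjusted p = 0.0044). Zbtb7b (chromosome 3, 89377644 to 89394776) was at 19.7, 16.6, 16.3 and 19.3 CPM in the RGM libraries, wild-type before knockout, against 38.9, 22.4, 36.1, 25.7 and 17.2 CPM for run1 in the same order. Knockout replicate 5 lay within the RGM range, and the fall was 1.58-fold (log2 difference -0.66, SE 0.24, adjusted p = 0.038). Zbtb7b was not called by edgeR in wild-type libraries alone (-0.76, adjusted p = 0.15) or in knockout libraries alone (-0.57, adjusted p = 0.25). Zbtb7c was 3.13-fold lower (log2 difference -1.65, SE 0.52, adjusted p = 0.018) at 1.45 ± 1.04 CPM (SD, n = 4) against 5.39 ± 3.58 CPM (SD, n = 5), and its ranges overlapped. Its RGM libraries held 5, 3, 9 and 1 counts, wild-type before knockout, against a floor of 3 counts. Zbtb7c was not called by edgeR in wild-type libraries alone (-1.13, adjusted p = 0.32) or in knockout libraries alone (-2.02, adjusted p = 0.051).

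Zbtb33 (Kaiso) was 1.73-fold lower in RGM cells, at 10.2 ± 2.25 CPM (SD, n = 4) against 17.6 ± 4.05 CPM (SD, n = 5). The log2 difference was -0.79 (SE 0.24, adjusted p = 0.016), and the RGM libraries (7.69 to 13.0 CPM) lay just below the others (13.8 to 22.1 CPM). Ctnnd1, which encodes the catenin p120 that binds Kaiso, was higher in RGM cells at 129 ± 20.3 CPM (SD, n = 4) against 95.2 ± 6.41 CPM (SD, n = 5), a log2 difference of 0.44 (SE 0.13, adjusted p = 0.011).

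Zbtb17 (Miz-1, chromosome 4, 141444654 to 141467930) was higher in RGM cells, at 29.4, 35.9, 36.8 and 27.2 CPM, wild-type before knockout, against 17.9, 22.1, 21.3, 17.8 and 15.1 CPM in run1. Its gene overlaps Spen on the other strand, as Zbtb33 does Tmem255a. The groups did not overlap, and the log2 difference was 0.77 (SE 0.18, adjusted p = 0.0031), 1.71-fold. The row that merges Zbtb26 and Zbtb6, neighbours that overlap on chromosome 2, was at 17.2, 13.8, 19.5 and 15.0 CPM in RGM cells against 10.7, 8.67, 7.88, 8.77 and 6.39 CPM in run1. It was 1.93-fold higher without overlap (log2 difference 0.95, SE 0.22, adjusted p = 0.0033). The row also names AK145756, and the counts do not say which of the merged genes differed. Zbtb20 was 1.97-fold higher (log2 difference 0.97, SE 0.33, adjusted p = 0.027) at 3.55 to 7.05 CPM against 1.32 to 3.77 CPM. Zbtb9, in a row merged with Ggnbp1, was 1.62-fold higher (log2 difference 0.69, SE 0.24, adjusted p = 0.029), at 51.8, 56.0, 57.3 and 43.8 CPM against 24.3, 31.5, 35.5, 20.3 and 53.3 CPM. Knockout replicate 5 was alone among the run1 libraries in reaching the RGM range for Zbtb9. Zbtb9 (chromosome 17, 26973167 to 27008376) lies on the strand of Ggnbp1 and overlaps it.

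**Figure D4:**
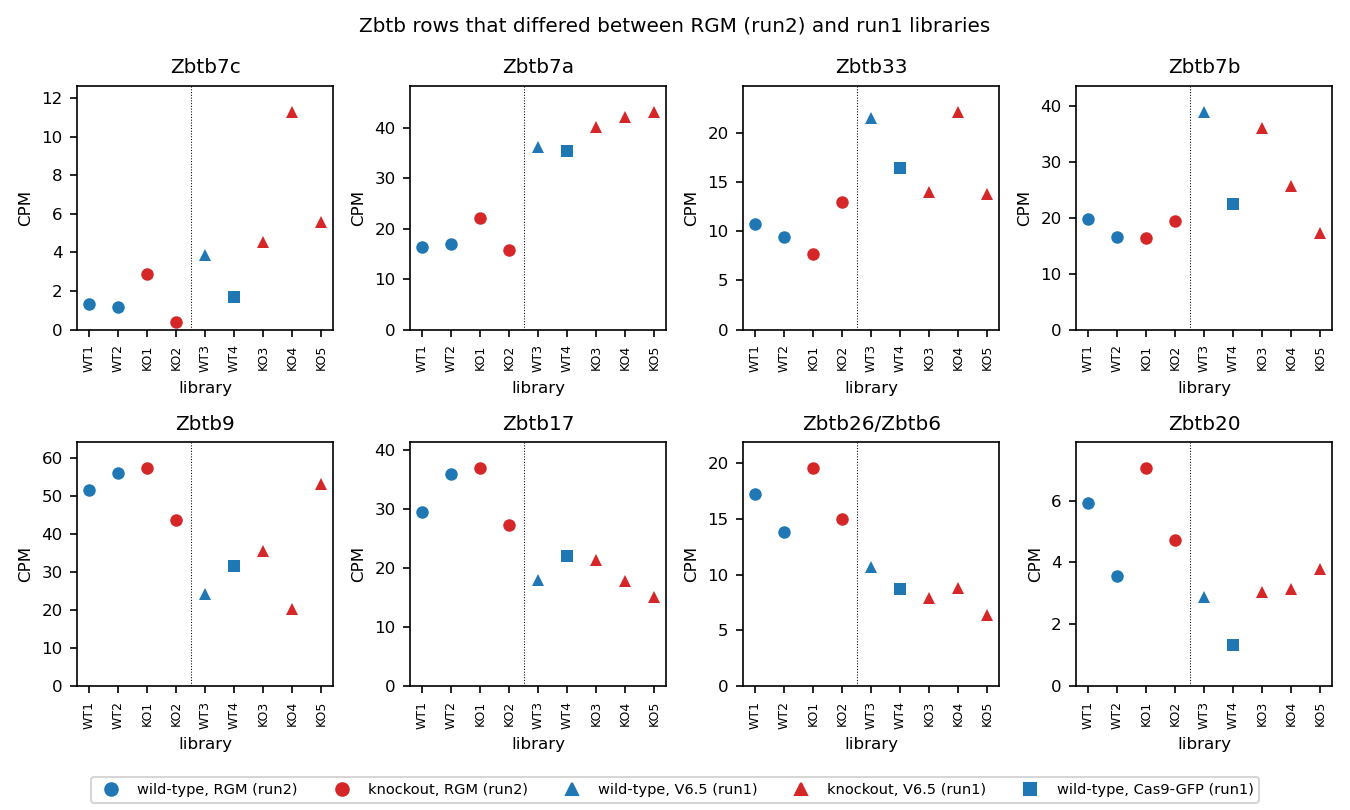
CPM in each library (horizontal axis; WT, wild-type; KO, knockout, with replicate numbers) for the 8 Zbtb rows called between the runs, RGM libraries left and run1 libraries right of the dotted line; each vertical axis starts at 0. Zbtb7a, Zbtb33, Zbtb17 and the row of Zbtb26 and Zbtb6 show no overlap between the sides.

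In all, 4 of the 35 members (Zbtb7a, Zbtb33, Zbtb17 and the Zbtb26 and Zbtb6 row) had no overlap between run2 and run1, against 38.6% of all genes tested (19.4% higher and 19.2% lower). Calls in 1 genotype alone were fewer, 1 in wild-type libraries (24.4% of all genes) and 3 in knockout libraries (25% of all genes). Among the calls, 3 (Zbtb7a, Zbtb17 and the Zbtb26 and Zbtb6 row) held their call whichever of the 9 libraries was left out. Zbtb33 lost it when wild-type replicate 2, wild-type replicate 3 or knockout replicate 1 was left out (adjusted p up to 0.075), and Zbtb7c without wild-type replicate 3 or knockout replicate 2 (up to 0.075). Zbtb20 lost it when wild-type replicate 1, wild-type replicate 4 or knockout replicate 1 was left out (up to 0.12). Zbtb9 kept it in 4 of the 9 fits, losing it when any wild-type library or knockout replicate 1 was left out (adjusted p up to 0.095). Zbtb7b kept it in 3, losing it when any of replicates 1, 2 and 3 of either genotype was left out (adjusted p up to 0.15). Leaving out wild-type replicate 3, or knockout replicate 1, gave 4 calls in place of 8, and leaving out wild-type replicate 1, or 2, gave 5.

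Fibroblast markers moved with the runs, 16 of 19 tested being higher in run2 and 0 lower, with a median log2 difference of 0.90. Within RGM cells the sum of these markers was highest in knockout replicate 2 (5691 CPM) and lowest in knockout replicate 1 (3872 CPM). Of the 4 rows higher in RGM cells, Zbtb17, Zbtb20, Zbtb9 and the Zbtb26 and Zbtb6 row all had their highest RGM level in knockout replicate 1, and Zbtb17 and Zbtb9 their lowest in knockout replicate 2. Of the 4 rows lower in RGM cells, Zbtb7a and Zbtb7c also had their highest RGM level in knockout replicate 1 and their lowest in knockout replicate 2. Zbtb33 had the reverse, and Zbtb7b was lowest in knockout replicate 1 and highest in wild-type replicate 1. These orders within RGM cells were looked at for the called Zbtb rows only. Their shares over all genes were not counted, so they say nothing particular about these rows. Markers of primitive endoderm (2 of 4 higher, 0 lower), mesendoderm (2 higher and 1 lower of 5) and neuroectoderm (2 higher and 3 lower of 5) were called between the runs, beside 45.3% of all genes tested. Of the 10 pluripotency markers 2 were higher and 1 was lower in run2. The part of all these markers, the fibroblast markers among them, in the Zbtb differences was not tested.

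The other tested members did not pass between the runs. Zbtb48 was at 12.3 ± 1.59 CPM (SD, n = 4) in run2 and 17.0 ± 2.19 CPM (SD, n = 5) in run1 (log2 difference -0.46, SE 0.20, adjusted p = 0.075) and passed with limma voom (adjusted p = 0.045). Zbtb24 had a log2 difference of 0.34 (SE 0.20, adjusted p = 0.18), at 18.6 to 21.3 CPM in RGM cells and 11.9 to 19.4 CPM in run1. Cdca7, a target that Zbtb24 activates and itself an ICF gene, was 3.37-fold higher in RGM cells, at 133 ± 26.0 CPM (SD, n = 4) against 39.4 ± 9.43 CPM (SD, n = 5) (log2 difference 1.75, SE 0.19, adjusted p = 1.1e-05). The other 3 targets on the list, Taf6, Cdc40 and Ostc, did not pass, with log2 differences of 0.37, -0.01 and 0.29. Without the low-count filter edgeR also called Zbtb38 (adjusted p = 0.0023) and Zbtb12 (adjusted p = 0.018) as lower in RGM cells. Zbtb12 then had 5, 0, 5 and 2 counts in the RGM libraries and 21, 10, 12, 14 and 28 in those of run1.

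Several members varied widely among the libraries of run1. Zbtb2, which binds unmethylated CpG islands, was at 15.9, 16.6, 18.9 and 18.2 CPM in the RGM libraries, wild-type before knockout. Run1 gave 10.7 and 31.1 CPM for wild-type replicates 3 and 4, and 11.8, 35.1 and 6.23 CPM for knockout replicates 3 to 5. Both libraries numbered 4, a Cas9-GFP wild-type and a V6.5 knockout, were high, and the biological coefficient of variation of Zbtb2 (0.448) was at the 98.3 percentile of all genes tested. Zbtb44 was at 120, 141, 139.7 and 139.7 CPM in RGM cells and at 81.5, 243, 96.2, 138 and 50.6 CPM in run1, in the same order. Zbtb10, given above, was likewise highest in wild-type replicate 4 (46.2 CPM) and knockout replicate 4 (42.0 CPM).

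**Figure D5:**
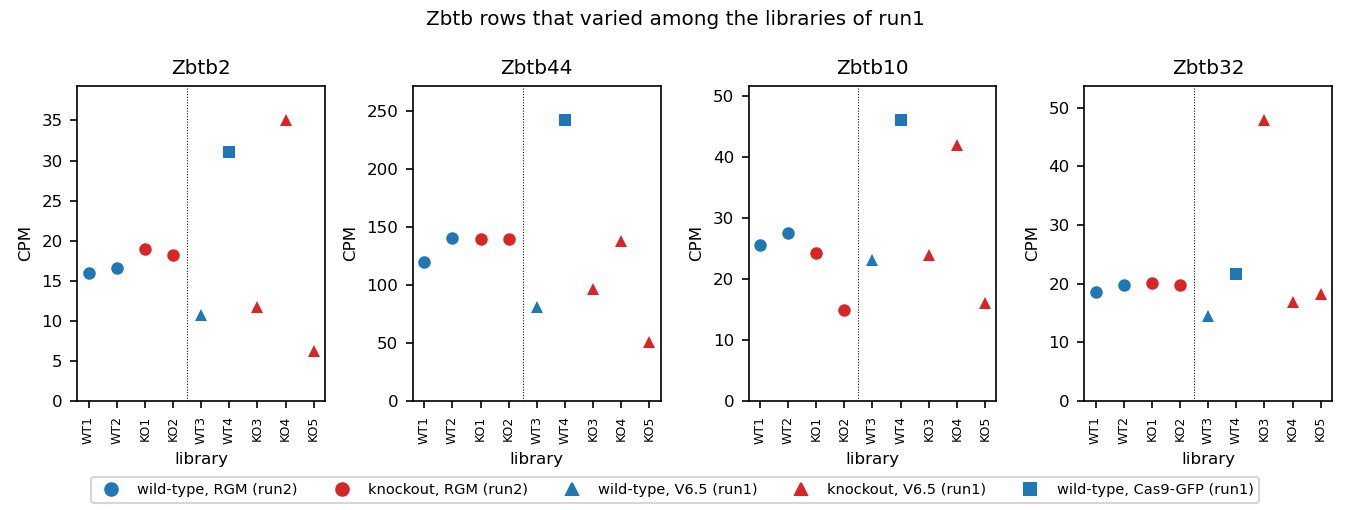
CPM in each library (horizontal axis; WT, wild-type; KO, knockout, with replicate numbers) for Zbtb2, Zbtb44, Zbtb10 and Zbtb32, RGM libraries left and run1 libraries right of the dotted line. WT4 and KO4 are the highest of run1 for Zbtb2, Zbtb44 and Zbtb10, and KO3 stands at 48.0 CPM for Zbtb32.

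For 12 of the 35 members wild-type replicate 4 and knockout replicate 4 were the 2 highest libraries of run1, against 16.6% of all genes tested, and for 4 they were the 2 lowest (17.7% of all genes). The 12 were Zbtb44, Zbtb11, Zbtb45, Zbtb21, Zbtb10, Zbtb8a, Zbtb1, Zbtb2, Zbtb41, Zbtb22, Zbtb40 and Zbtb37. This pattern was looked for after the values were seen and was not tested. The sum over all Zbtb rows was 832 CPM in wild-type replicate 4 and 765 CPM in knockout replicate 4, 546 to 665 CPM in the other run1 libraries and 641 to 696 CPM in RGM cells. Of these sums the merged Zbtb44 row alone held 242.8 CPM in wild-type replicate 4 and 138.3 CPM in knockout replicate 4. It held 50.65 to 96.23 CPM in the other run1 libraries. Compared with the 4 V6.5 libraries, the single Cas9-GFP library was outside their range for 14 members, 5 higher (Zbtb44, Zbtb11, Zbtb10, Zbtb17 and Zbtb22) and 9 lower, against 33.5% of all genes tested (16.3% higher and 17.1% lower). With 1 library of that line there is no replicate check. With both libraries numbered 4 left out, an alternative added after seeing the data, 0 members were called in the knockout and 9 between the runs. Zbtb44 (log2 difference 0.81, adjusted p = 0.0052), Zbtb2 (0.84, adjusted p = 0.017) and Zbtb8a (0.61, adjusted p = 0.014) were then higher in RGM cells, while Zbtb20 (adjusted p = 0.080) and Zbtb9 (adjusted p = 0.068) no longer passed.

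Other BTB zinc finger genes outside the Zbtb names likewise gave no call in the knockout. Of 8 tested (Gzf1 among them, with the values given above and a 95% interval of -2.37 to -0.53) 0 passed the adjusted threshold, and 7 had a negative log2 fold change. Patz1, a regulator known in stem cells and thymocytes, was at 76.1 ± 7.97 CPM (SD, n = 4) for wild type against 63.0 ± 8.75 CPM (SD, n = 5) for knockout (log2 fold change -0.25, SE 0.13, unadjusted p = 0.070). Values were -0.11 for Bcl6, -0.12 for Bcl6b, 0.09 for Hic1, -0.11 for Hic2, -0.12 for Mynn and -0.04 for Zfp131, all as log2 fold changes. Between the runs 3 were higher in RGM cells and 1 lower, 4 of 8 beside 45.3% of all genes tested, a share near that of genes in general. Zfp131 was 2.15-fold higher (86.0 ± 9.84 CPM, SD, n = 4, against 39.8 ± 5.65 CPM, SD, n = 5; adjusted p = 5.6e-05). Bcl6, the repressor of germinal centre B cells, was 3.94-fold higher (8.84 ± 2.68 against 2.21 ± 0.735 CPM; adjusted p = 0.00036) and Hic2 1.34-fold higher (adjusted p = 0.016). Bcl6b was 2.28-fold lower (adjusted p = 0.033).

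Corepressors and partners of BTB proteins were not called in the knockout either, 0 of 15, with a median log2 fold change of 0.06. Between the runs 6 were lower in RGM cells and 1, Ctnnd1, was higher, that is 7 of 15 beside 45.3% of all genes tested, a share near that of genes in general. Those lower were Ncor1 (log2 difference -0.87, adjusted p = 0.00017), the scaffold of the complex that many BTB domains recruit, and Tbl1x (-0.90, adjusted p = 0.0017) of the same complex. The others were Hdac1 (-0.85, adjusted p = 0.00084), Hdac2 (-0.78, adjusted p = 0.00038) and Chd4 (-0.41, adjusted p = 0.025), enzymes of deacetylase and remodelling complexes, and Cul3 (-0.69, adjusted p = 0.0015), the ubiquitin ligase scaffold bound by BTB adaptors. Bcor and Hdac3 did not pass, at -0.08 and -0.12.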

How the data were processed

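Poly(A)+ RNA of 9 libraries was counted by MARS-seq2.0, a 3' tagging method, per the labels' protocols. The values deposited by the authors are raw whole-number counts by symbol. The submitters' processing notes name STAR, DESeq2 and mm10, while no source used here gives the counter, the annotation or the use of strand. The 92 spike-in rows, with 1 count, were left out. Genes were kept with filterByExpr (minimum count 10), scaled with TMM and tested in edgeR 4.0.16 (R 4.3.3) by its quasi-likelihood F test (robust), modelling genotype and run, or with 4 groups (genotype by run) for contrasts within and between runs. The Benjamini-Hochberg adjustment was over all 12645 genes, with a threshold of 0.05. The SE is the absolute log2 fold change over the square root of F, and 95% intervals are per gene. DESeq2 1.42.0, limma 3.58.1 voom, RLE scaling, no filter and leaving out each library were alternatives. The fit with run and genotype was tested on simulated data. Libraries of a genotype and run differed beyond sampling noise (chi-square per degree of freedom 2.63 to 26.0). Positions are from GENCODE M21 (GRCm38). Members and gene lists were chosen with earlier results of these data known. Every member could be named; full values went to members called, to the 6 with the smallest knockout p, the 6 most highly expressed, those called between runs (up to 6 each way), the 2 with the smallest p of the difference between runs and the methylated DNA readers. Cell type marker lists are given as counts.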

Additional observations from a re-analysis of the deposited data

Results flagged for a closer look

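Within each genotype every tested member was examined for a library standing apart from the rest by Dixon's gap, 70 groups in all, of which 5 had one. Chance gives about 1 in 20 where the libraries of a group share 1 normal spread. Each group here pooled both runs, so that rate need not hold. Zbtb32 was at 48.0 CPM in knockout replicate 3, far above the other 4 knockout libraries. Zbtb43 was at 26.9 CPM in knockout replicate 5, above the rest, and Zbtb24 at 14.2 CPM in knockout replicate 3, below the rest. Among wild-type libraries Zbtb8a was at 15.1 CPM in replicate 3 and Zbtb3 at 2.16 CPM in replicate 1, each below the other 3.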

How the results depend on the processing

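The count of 0 Zbtb members called in the knockout, in all libraries and within either run, and of 0 called for the difference between runs, was the same under every alternative run: RLE scaling, DESeq2, no low-count filter, limma voom, each library left out and both libraries numbered 4 left out. Of 12645 genes tested 4 passed over all libraries, 2 within run1 and 0 within run2 or for the difference between runs. With so few genes passing, an unchanged 0 among the members says little about stability in any of these contrasts. Where leaving out a library left 1 in an arm, that library was taken to vary like the other groups. For all libraries together it was also 0 with the replicate block, with no run term and without merged rows, and for either run in a fit to its libraries alone. The 4 genes called over the whole table became 7 with DESeq2, 7 with limma voom, 35 without the low-count filter, 2 without a run term and 2 to 4 with 1 library left out. No label says what a shared replicate number marks. Deviations from the mean of genotype and run correlated for same-numbered libraries at -0.08 in run2 and at 0.30 and 0.35 in run1. Differently numbered ones lay between -0.35 and 0.11 in run1. With 2 wild-type libraries a run, their deviations mirror each other, so the values of one fix those of the other. The correlations therefore cannot decide whether the numbers mark pairs, and the numbers were not taken as pairs. With the replicate block in place of run 6 genes and 0 Zbtb members were called, and the knockout log2 fold changes of Zbtb9 (-0.05) and Zbtb45 (0.048) changed sign. With 1 library left out the knockout log2 fold change ranged from -0.034 to 0.30 for Zbtb9, -0.31 to 0.065 for Zbtb45, -0.59 to 0.15 for Zbtb44, -0.27 to 0.045 for Zbtb11, -0.25 to 0.005 for Zbtb21 and -0.26 to 0.013 for Zbtb33, none of them called. The 8 rows called between the runs were 8 with RLE and DESeq2, 9 with limma voom, 10 without the filter, 6 without merged rows, 4 to 10 with 1 library left out, 1 in wild-type libraries only and 3 in knockout libraries only. The last 2 are contrasts of the 4-group fit to all 9 libraries, each between the libraries of 1 genotype. The cause of the changes in count was not tested. Depth limits Zbtb16, below 3 counts in every library, and Zbtb38, below 3 counts in the 4 RGM libraries. It also limits Zbtb7c, at 5, 3, 9 and 1 counts in the RGM libraries.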
